A study of Mus musculus with 12 samples.

Results

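The genes described here encode the respiratory chain and the ATP synthase of the mitochondrial inner membrane. They were taken by gene symbol, namely the names that begin with Nduf and a letter of a, b, c, s or v and a number, with Sdha to Sdhd, with Uqcr, with Cox4 to Cox8 or with Atp5. Of the 16385 genes in the expression table, 88 matched. Of these, 80 are subunits of complexes I to V, with 35 in complex I, 4 in complex II, 8 in complex III, 16 in complex IV and 17 in complex V. The same names also brought in 4 assembly factors of complex II (Sdhaf1 to Sdhaf4), 3 pseudogenes (Atp5pb-ps, Cox5b-ps and Cox6c2) and Atp5sl, whose RefSeq symbol is Dmac2 and which takes part in complex I assembly.

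Complexes I and II pass electrons from NADH and succinate to ubiquinone, complex III passes them on to cytochrome c, and complex IV reduces oxygen. Complexes I, III and IV pump protons as they do so, and ATP synthase, also called complex V, lets the protons flow back to make ATP. A few core subunits of complexes I, III, IV and V are encoded by mitochondrial DNA, and their genes were not analysed here. All members are nuclear genes, and endocrine cells such as corticotropes rely on this machinery for the energy cost of hormone synthesis and secretion.

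RNA was measured in AtT-20 cells, a mouse pituitary corticotrope tumour line, after stable retroviral expression of Pax7 or Pax3, to compare the transcriptomes that Pax7 isoforms, a deletion mutant and Pax3 produce. There were 6 groups of 2 libraries each, labelled Pax7 NoTag, Pax7-465, Pax3, Pax7 Q-GL-, Pax7 Q+GL+ and Pax7 Q-GL+. Q and GL name a glutamine and a glycine-leucine pair that splicing adds to the DNA-binding paired domain of Pax7. Pax7-465 is a deletion mutant that lacks C-terminal sequence. The paper labels its deletion mutants as Q+GL- and states that Pax3 is Q+GL- too. The label NoTag comes with the genotype Pax7 and no stated isoform. Per the study's methods, the constructs were driven by the CMV promoter, carried Flag tags at both ends, and were studied in Geneticin-resistant colonies that were pooled, and whether NoTag lacks those tags is not stated. The methods call the replicates biological, but nothing says that they came from separate infections, so a p-value here reflects only how far such libraries lie apart, which may be technical. RNA was taken from bulk cultures, in which fewer cells and less RNA per cell cannot be told apart.

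The values are FPKM, fragments scaled to gene length and library size, and the read depth behind them is unknown. Summed over all genes they came to 627305 and 666609 in the NoTag libraries, against 413794 to 483161 in the other 10. The introduced Pax7 transcript was at 157 and 159 FPKM in NoTag cells, 93.9 to 113 FPKM in the Pax7-465 and the 3 other Pax7 groups and 0.159 and 0.161 FPKM in Pax3 cells. Pax3 itself had no entry, so the factor introduced into Pax3 cells could not be checked. Of 6 corticotrope genes looked for, 5 had an entry. Pomc (5112 to 10680 FPKM), Tbx19 (116 to 143 FPKM), Pcsk1 and Neurod1 were present in all 12 libraries. Crhr1 was low, at 0.130 to 0.484 FPKM. The paper states that Pax7 moves AtT-20 cells towards the melanotrope fate, and melanotrope genes other than Pax7 were not read here. These levels therefore do not tell corticotropes from melanotropes. The gonadotrope gene Lhb was the 1 gene with an entry of 6 for other pituitary cells, listed at 0 in all 12 libraries. The fibroblast collagen Col1a1 was the 1 with an entry of 5 for fibroblasts or stroma, and was at most 1.07 FPKM. The NoTag pair was tested separately. Its summed FPKM lay above that of all other libraries, and 733 genes had a value in both NoTag libraries and a listed 0 in the other 10. Such a count was not made for other pairs of libraries.

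The promoters of the subunit genes carried sequences that such genes are known for more often than promoters did in general. RefSeq promoters of 300 bases, 250 before and 50 after the start site on GRCm38.p6, were matched for 67 of the 80 subunits. A palindrome of 10 letters bound by NRF1, a master regulator of respiratory genes, was in 7.46% of them (5 promoters) and in 1.07% of 27025 genes. The letters CCGGAAG, bound by ETS factors such as NRF2 (GABP), were in 25.4% of them (17 promoters) and in 9.93% of all genes. A motif of 11 letters bound by YY1 was in 5.97% (4 promoters) and 1.17%. Both strands were searched, the 3 motifs do not contain each other, and at least 1 of them was in 24 of the 67 promoters (35.8%), against 11.6% of all genes. A match describes letters and not a bound site. The following stretches are shown as a pair of examples for each motif, among them Ndufa11, Ndufs4 and Atp5e, on which the results turn. The capitals mark the motif as it was searched, apart from the third letter of the YY1 motif, where any base was allowed, and each is read along the strand of the gene.
Ndufa11, NRF1, chr17:56717677-56717736, plus strand: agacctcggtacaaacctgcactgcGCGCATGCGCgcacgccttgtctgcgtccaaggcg
Cox6a1, NRF1, chr5:115349086-115349145, minus strand: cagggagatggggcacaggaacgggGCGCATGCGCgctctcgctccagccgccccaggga
Atp5e, ETS, chr2:174464172-174464228, minus strand: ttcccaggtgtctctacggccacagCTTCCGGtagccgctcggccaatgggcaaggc
Cox8a, ETS, chr19:7217604-7217632, minus strand: tttccgaaataCTTCCGGctcgggcgtcc
Ndufs4, YY1, chr13:114388045-114388068, minus strand: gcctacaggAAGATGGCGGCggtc
Ndufs7, YY1, chr10:80249464-80249492, plus strand: gccgaggccAAGATGGCGGCgctggcggg
The ETS motif runs against the direction of transcription in both genes shown, and the YY1 motif lies 36 and 25 bases past the start site of Ndufs4 and Ndufs7.

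Subunit transcripts were abundant in AtT-20 cells. The mean over the 10 libraries other than NoTag was at least 10 FPKM for 77 of the 80 subunits and at least 100 FPKM for 52, with a median of 148 FPKM. Together the subunits held 3.23% and 3.31% of the summed FPKM in NoTag cells and 3.26% to 3.52% in the other 10 libraries, so that 1 NoTag library lay just below the range of the rest and the other within it. Levels in FPKM are per length and may be compared between genes, but they depend on the gene models used. For 9 subunit genes RefSeq lists a pseudogene with their symbol and the ending ps, which could share reads with them. Pseudogenes under other names, such as Cox6c2, were not counted.

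ATP synthase and complex IV held the most abundant transcripts, with medians of 270 and 247 FPKM over their subunits. The highest was Atp5b, the catalytic beta subunit, at 1228 to 1614 FPKM, followed among complex V genes by Atp5a1, the alpha subunit of the same catalytic head, at 470 to 575 FPKM. In complex IV, cytochrome c oxidase, Cox4i1, a regulatory subunit, was at 491 to 640 FPKM and Cox8a at 441 to 558 FPKM. Uqcr11 (398 to 507 FPKM) and Uqcr10 (309 to 386 FPKM), both small subunits of complex III, stood above the core proteins of that complex, of which Uqcrc1 was at 37.3 to 48.0 FPKM. Complex II, succinate dehydrogenase, had Sdhb, its iron-sulphur subunit, at 132 to 163 FPKM and Sdhd, a membrane anchor, at 123 to 148 FPKM, above the flavoprotein Sdha at 42.2 to 50.4 FPKM. In complex I, NADH dehydrogenase, the 7 nuclear core subunits had a median of 92.0 FPKM and the 28 supernumerary subunits 121 FPKM, with Ndufa1 (266 to 332 FPKM) and Ndufb8 (191 to 260 FPKM) at the top and Ndufa11 (17.6 to 21 FPKM) at the bottom. All of these ranges are over the 10 libraries other than NoTag.

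**Figure D1:**
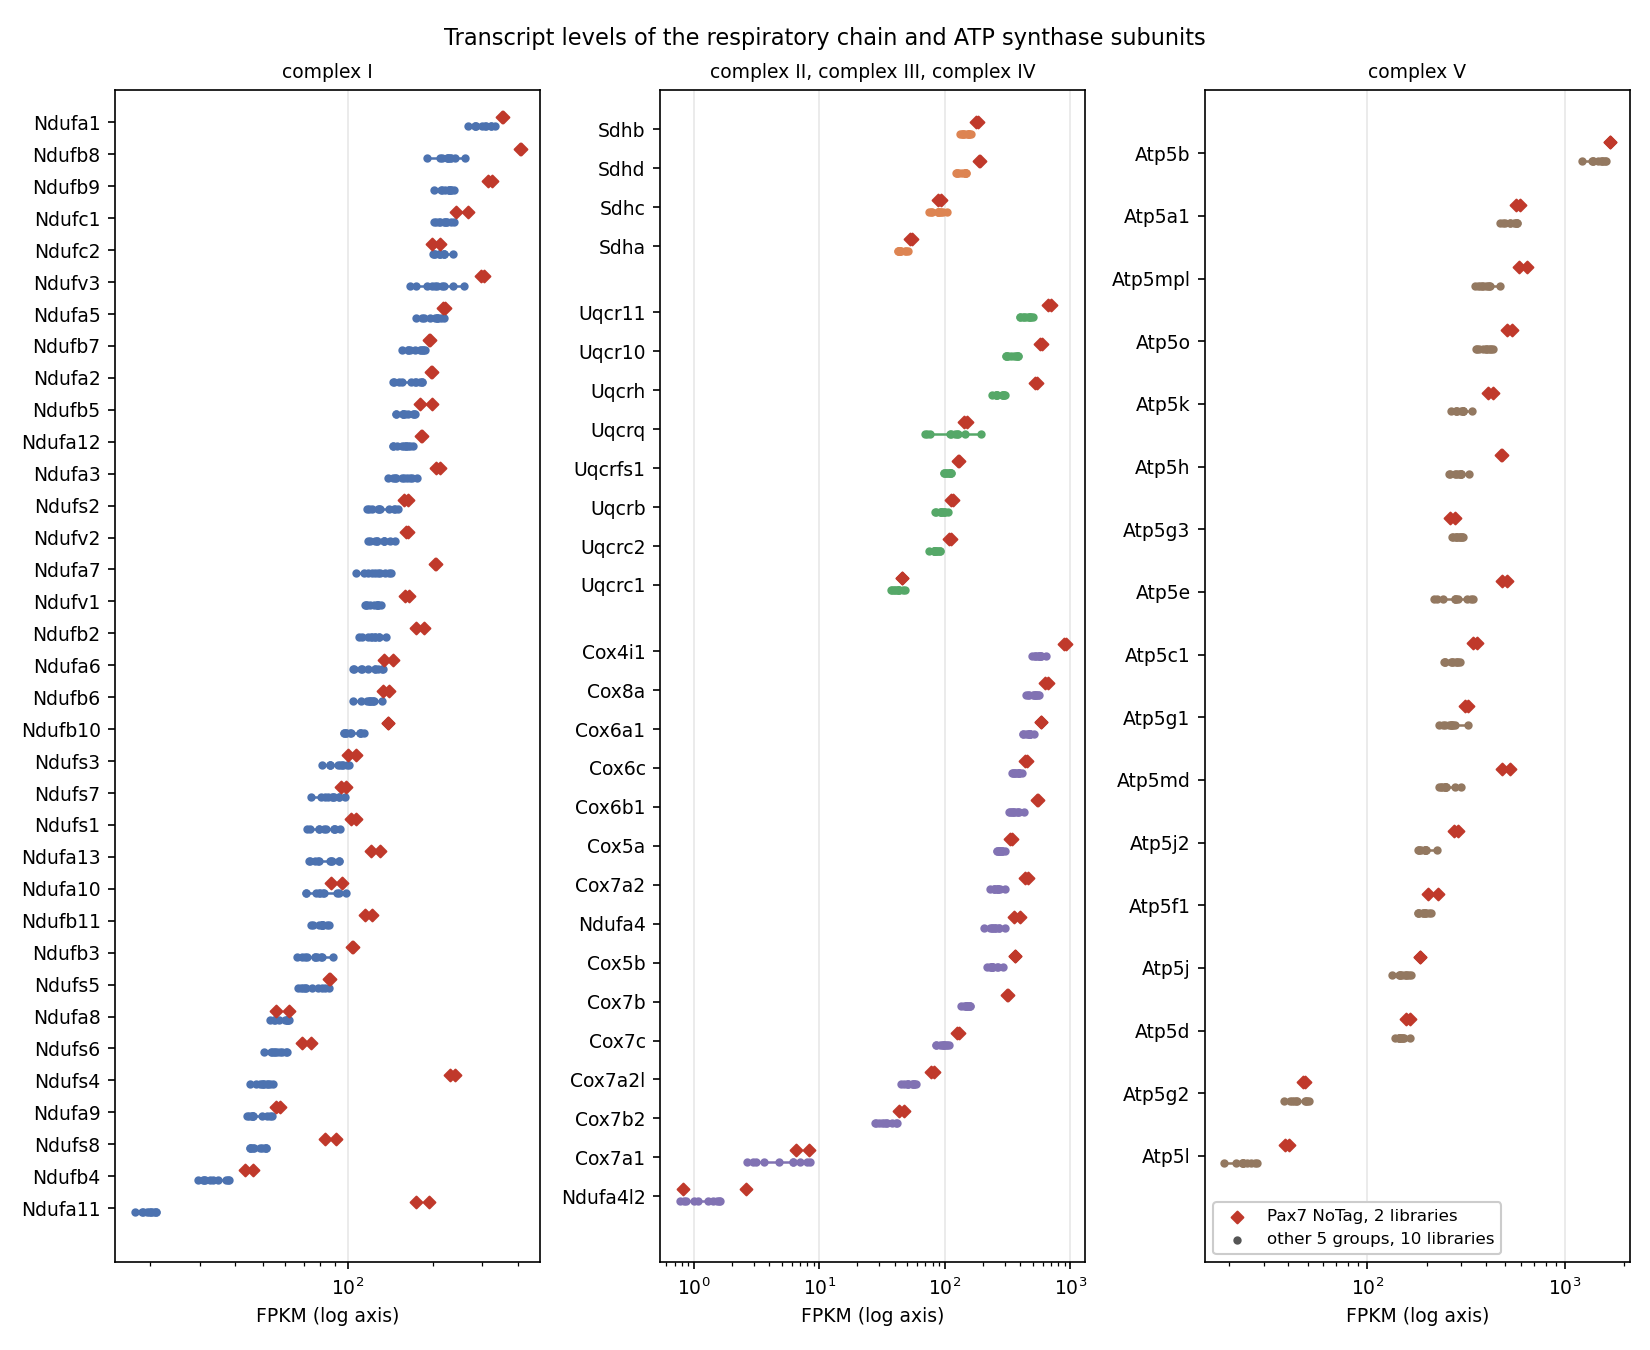
FPKM of 79 of the 80 subunits on log axes, by complex, in the 2 NoTag libraries (red diamonds) and in the 10 libraries of the other 5 groups (circles, with a line over their range). Cox6b2, listed at 0 in those 10 libraries, is left out, and the range across the 10 libraries is narrow beside the range between genes, with Atp5b highest and Ndufa11 the complex I gene farthest from its NoTag values.

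Where a subunit has tissue isoforms and both had an entry, the common form was the main one. Subunit c, which forms the rotating ring of ATP synthase, is encoded by 3 genes with the same mature protein. Of their summed FPKM, Atp5g3 gave 42.2% and 42.8% in NoTag and 45.1% to 52.1% in the other 10 libraries, Atp5g1 gave 49.9% and 50.1% in NoTag and 40.4% to 47.7% in the other 10, and Atp5g2 gave 6.29% to 8.43% in all 12. NoTag was thus outside the range of the others for Atp5g1 and Atp5g3. Cox7a2 was at 228 to 302 FPKM in the 10 libraries, while Cox7a1, the heart and muscle form, gave 0.995% to 3.11% of the pair there. Cox6b1 was at 327 to 426 FPKM, and the testis form Cox6b2 was at 0.639 and 0.765 FPKM in NoTag and listed at 0 in the other 10. Ndufa4, a subunit first assigned to complex I and now to complex IV, was at 206 to 300 FPKM, against 0.767 to 1.61 FPKM for its hypoxia-linked paralogue Ndufa4l2. Cox7b2, a paralogue of Cox7b, was an exception in degree, at 12.8% and 12% of the pair in NoTag and 16.2% to 21.3% in the other 10. Cox6a1 was at 418 to 516 FPKM and Cox7a2l, a factor that joins complexes III and IV into supercomplexes, at 44.5 to 58.9 FPKM in the 10 libraries. Cox4i2, Cox6a2 and Cox8b, the other forms of their pairs, had no entry among the genes measured, so those pairs could not be compared.

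The 8 members that are not subunits were low. Sdhaf4 was at 26.1 to 37.8 FPKM, Sdhaf1 at 7.57 to 9.53 FPKM, Sdhaf2 at 6.89 to 9.13 FPKM and Sdhaf3 at 1.22 to 2.48 FPKM in the 10 libraries. Atp5sl was at 12.3 to 16.1 FPKM, Cox5b-ps at 1.61 to 3.33 FPKM, Atp5pb-ps at 0.344 to 0.989 FPKM and Cox6c2 at 0.700 FPKM or less in the same 10.

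Among the 5 groups other than NoTag, no member gene passed the test in any of the 7 pairs compared or in the test across all 5 groups. Pax3 and Pax7-465 were not set against Q-GL+ or against each other. Of the 88 members, 85 had at least 1 FPKM in at least 2 libraries and were tested with the 12343 genes of that kind, on log2(FPKM + 1) with limma and Benjamini-Hochberg adjustment. A gene was called at an adjusted p under 0.05. The test of any difference among the 5 groups called 0 of the 85 members, where it called 3.54% of all genes tested. Before adjustment 7 of the 85 members (8.24%) passed 0.05, namely Atp5e, Ndufa4l2, Ndufb4, Atp5sl, Ndufa4, Ndufs1 and Ndufv3, against 17.5% of all genes. The group means lay close together. For the median subunit the highest of the 5 group means was 1.12 times the lowest, and for 76 of the 79 subunits with a value in these libraries it was under 1.5 times. Of these 79, the highest mean was in Q-GL- cells for 42 and in Pax3 cells for 20, and the lowest was in Pax7-465 cells for 30, in Q-GL+ cells for 25 and in Q+GL+ cells for 17. Such counts were not made over all genes, whose medians also shifted between libraries. The median of all genes tested deviated by 0.03 in both Q-GL- libraries, −0.03 and 0.02 in Pax7-465 and −0.07 and 0.03 in Pax3. The part of library composition in these counts was not tested.

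The effect of the GL pair was compared without Q, in Q-GL- and Q-GL+ cells. None of the 85 members was called, where 3.21% of all genes were (2.36% higher and 0.851% lower). Before adjustment 8 members passed 0.05 upwards in Q-GL- cells and 3 downwards, against 11.8% and 5.78% of all genes. The median member had a log2 fold change of 0.09 and the median of all genes was 0.04. Ndufv3, a subunit of the NADH-binding arm of complex I, was at 236 and 258 FPKM in Q-GL- cells, against 205 and 175 in Q-GL+ cells. Both Q-GL- libraries were above the Q-GL+ ones (log2 fold change 0.38 with a standard error of 0.12, limma adjusted p = 0.13). Ndufa10, another supernumerary subunit of complex I, was at 98.3 and 92.0 FPKM against 80.1 and 71.2 FPKM (0.33, adjusted p = 0.13 by limma). Atp5sl was at 15.8 and 16.1 FPKM in Q-GL- cells, against 12.3 and 12.4 in Q-GL+ cells, which gave 0.34 (standard error 0.08, limma adjusted p = 0.051) and came nearest to a call. Ndufb4, of the membrane arm, lay the other way, at 31.3 and 30.7 FPKM against 37.2 and 37.9 FPKM (−0.27, adjusted p = 0.11 by limma). These genes, and the single members named in the next comparisons, were picked for small p-values after their values were seen. Each of the 4 passed the threshold under some of the 18 alternatives tried, Atp5sl under 7, Ndufb4 under 4, Ndufv3 and Ndufa10 under 3 each.

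The effect of Q was compared in GL+ cells, Q+GL+ against Q-GL+. No member was called, where 0.616% of all genes were (0.227% higher and 0.389% lower). Before adjustment 3 passed 0.05 upwards and 5 downwards, against 6.8% and 5.35% of all genes. The gene nearest to a call was Atp5e, which encodes the small epsilon subunit of the central stalk of ATP synthase. Its FPKM was 241 and 219 in Q+GL+ cells, against 334 and 342 in Q-GL+ cells, with the groups well apart. The log2 fold change was −0.56 with a standard error of 0.11 (limma adjusted p = 0.054), and under the alternatives its adjusted p was between 0.0035 and 0.39, under 0.05 in 10 of 18. Atp5e was also at 226 and 280 FPKM in Pax7-465 cells, at 288 and 320 in Pax3 cells and at 280 and 280 in Q-GL- cells. Among the 5 groups Q-GL+ thus had the highest and Q+GL+ the lowest mean, and Pax7-465, next to the lowest, overlapped with Q+GL+. The test across the 5 groups gave Atp5e an adjusted p of 0.067 by limma, the smallest of any member. Cox7a1 was at 3.59 and 3.13 FPKM in Q+GL+ cells, against 8.36 and 7.99 in Q-GL+ cells. Its log2 fold change of −1.07 had a wide error (standard error 0.41, limma adjusted p = 0.38), since its replicates differed in other groups, at 2.95 and 6.14 FPKM in Pax7-465 cells and at 2.64 and 6.96 in Q-GL- cells. With only these 2 groups in the fit its adjusted p was 0.00014, and over all alternatives it was between 0.00014 and 0.85.

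**Figure D2:**
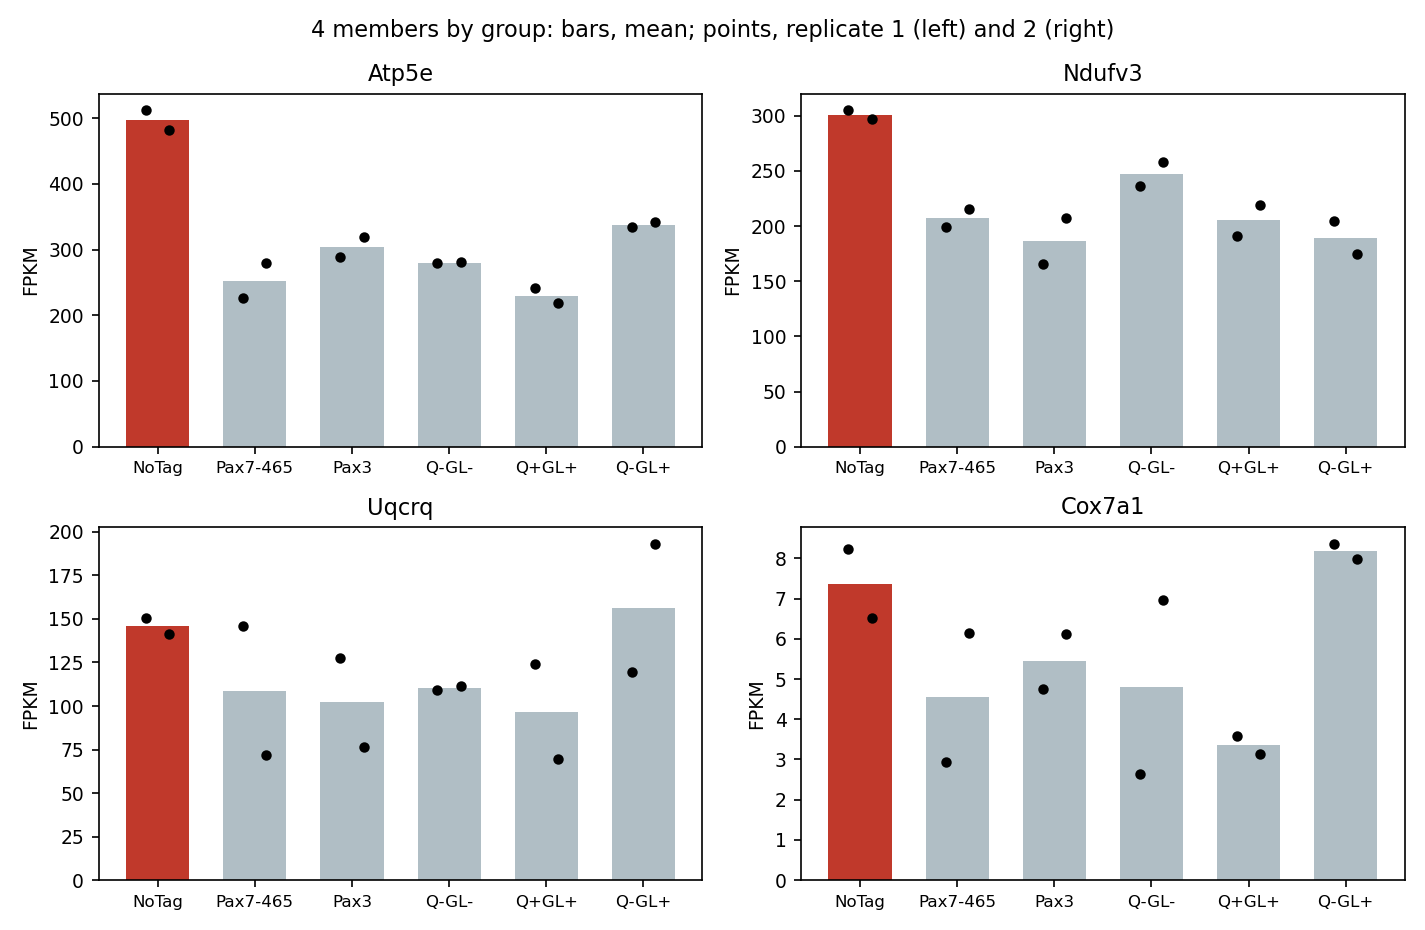
FPKM of Atp5e, Ndufv3, Uqcrq and Cox7a1 in the 6 groups, with bars from 0 for the mean of 2 libraries and points for replicate 1 (left) and replicate 2 (right). Atp5e and Ndufv3 are highest in NoTag, while Uqcrq and Cox7a1 have replicates that lie far apart in some groups, Uqcrq with 146 and 71.9 FPKM in Pax7-465 cells.

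Q-GL- cells set against Q+GL+ cells differ in both elements, and again no member was called, where 1.76% of all genes were (1.49% higher and 0.267% lower). Before adjustment 4 members passed 0.05 upwards and 0 downwards, against 8.77% and 4.62% of all genes. The smallest adjusted p was that of the low gene Ndufa4l2, at 1.54 and 1.43 FPKM in Q-GL- cells, against 0.838 and 0.767 in Q+GL+ cells (0.46, standard error 0.14, adjusted p = 0.14 by limma). Of the 85 members, 70 had a fold change above 0, but the median was only 0.06, against 0.02 for all genes. How many of all genes lay above 0 was not counted.

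Pax3, the nearest relative of Pax7, was set against both of these isoforms. As a Q+GL- factor it also differs from Q+GL+ in GL and from Q-GL- in Q. Against Q+GL+ cells no member was called, where 0.138% of all genes were (0.0567% higher and 0.081% lower). Before adjustment 2 passed 0.05 upwards and 0 downwards, against 3.38% and 5.84% of all genes. They were Atp5e (0.40, adjusted p = 0.26 by limma), whose 4 values are given above, and Ndufa4. Against Q-GL- cells no member was called, where 3.49% of all genes were (0.559% higher and 2.93% lower). Before adjustment 2 passed 0.05 upwards and 2 downwards, against 4.5% and 12.6% of all genes. Ndufv3 was at 166 and 207 FPKM in Pax3 cells, below the 236 and 258 FPKM of Q-GL- cells (−0.41, standard error 0.12, adjusted p = 0.11 by limma), and was called in 3 of 18 alternatives. Ndufa4 was at 272 and 300 FPKM in Pax3 cells, against 236 and 244 in Q-GL- cells (0.25, adjusted p = 0.22 by limma). Both Pax3 libraries were above the Q-GL- ones.

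Pax7-465 cells also had no member called. Besides the deletion, this Q+GL- mutant differs from Q+GL+ in GL and from Q-GL- in Q. Against Q+GL+ cells 1% of all genes was called (0.656% higher and 0.348% lower), and against Q-GL- cells 0.292% (0.0324% higher and 0.259% lower). Before adjustment 1 member passed 0.05 upwards and 1 downwards against Q+GL+ cells (5.51% and 6.51% of all genes), and 0 upwards and 6 downwards against Q-GL- cells (2.45% and 7.3% of all genes). Against Q-GL- cells the median member had a log2 fold change of −0.11, where all genes had −0.04, and 9 of 85 members lay above 0. The share of all genes above 0 was not counted. Without Pax7-465 replicate 1 the median member had −0.036 (all genes −0.009), and without replicate 2 it had −0.19 (all genes −0.07). Sdhaf4 was at 26.1 and 30.7 FPKM in Pax7-465 cells, against 34.5 and 37.8 in Q-GL- cells (−0.34, standard error 0.10, adjusted p = 0.26 by limma). Ndufs1, the largest core subunit of complex I, was at 73.5 and 79.4 FPKM in Pax7-465 cells, against 89.4 and 90.5 in Q-GL- cells (−0.23, adjusted p = 0.42 by limma). Against Q+GL+ cells Ndufa4l2, at 1.59 and 1.61 FPKM in Pax7-465 cells, had the smallest adjusted p (0.53, adjusted p = 0.11).

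The precision of these comparisons can be stated. In each of the 7, the 95% interval of the difference lay within −1 and 1 on the log2 scale for 83 of the 85 members, and within −0.5 and 0.5 for 75 to 80 of them, with a median half-width of 0.23. A member that misses the threshold is not shown to be equal between groups. The exceptions to the narrow intervals were Cox7a1 and Uqcrq, a small subunit of complex III whose replicates were far apart. Uqcrq was at 146 and 71.9 FPKM in Pax7-465 cells, at 128 and 76.3 in Pax3 cells, at 109 and 111 in Q-GL- cells, at 124 and 69.5 in Q+GL+ cells and at 120 and 193 in Q-GL+ cells. Apart from Q-GL-, whose libraries lay just below those of Q-GL+, the groups overlapped, and the difference of Q+GL+ over Q-GL+ cells had an interval of −1.96 to 0.55.

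**Figure D3:**
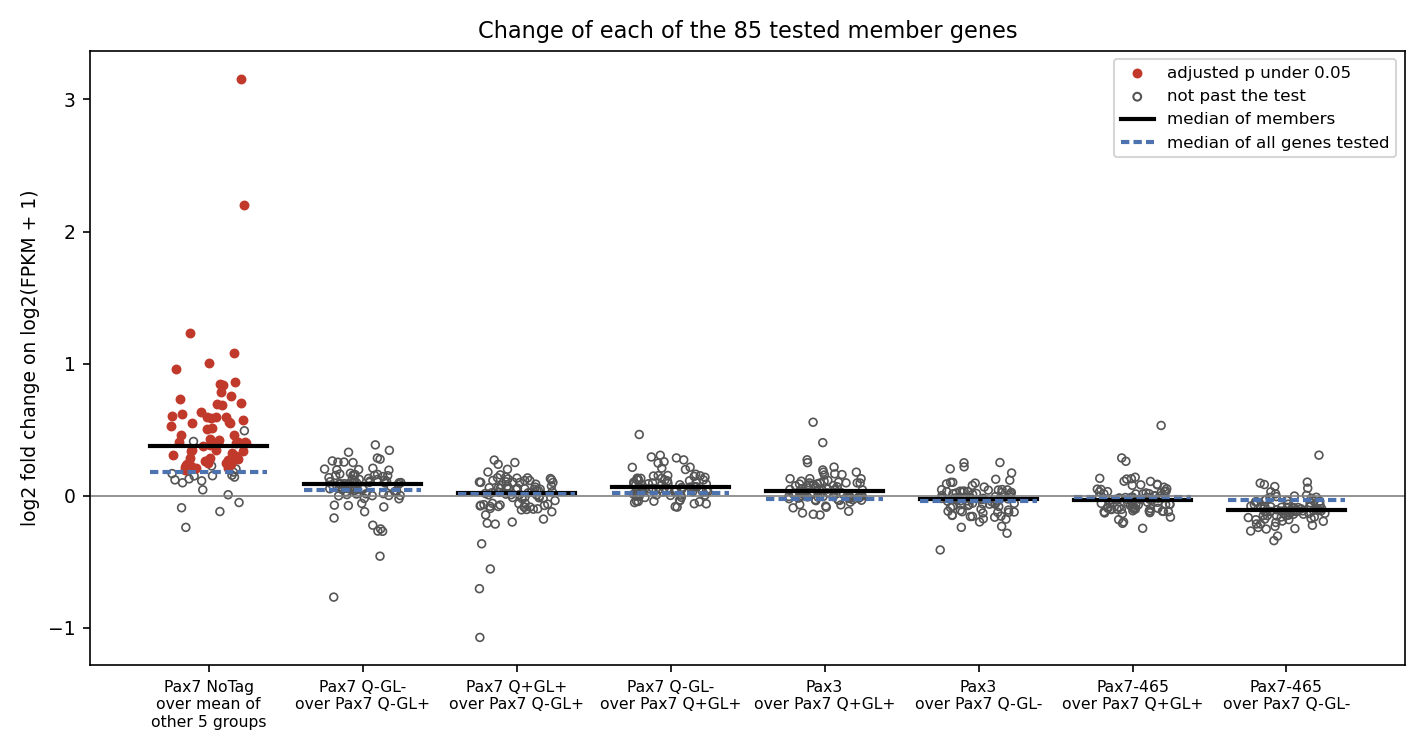
Log2 fold change of each of the 85 tested members on log2(FPKM + 1) in the NoTag comparison and the 7 comparisons among the other groups, with points filled where the adjusted p was under 0.05, a black line at the median of the members and a dashed line at the median of all genes tested. All filled points are in the NoTag column, where the medians are 0.37 and 0.18, and elsewhere both medians lie between −0.11 and 0.09.

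The subunit genes moved together from library to library, by amounts as large as those between groups. The median subunit deviated from its mean over the 10 libraries by −0.12 (log2) in Pax7-465 replicate 1 and by 0.02 in replicate 2. It deviated by −0.09 and 0.14 in the Pax3 libraries, by 0.06 in both Q-GL- libraries, by −0.04 and 0.02 in the Q+GL+ libraries and by 0.04 and −0.09 in the Q-GL+ libraries. Of 79 tested subunits, 76 were higher in Pax3 replicate 2 than in replicate 1, 75 were higher in Pax7-465 replicate 2, and 10 were higher in Q-GL+ replicate 2. The same medians over all genes tested ran from −0.07 in Pax3 replicate 1 to 0.03 in Pax3 replicate 2, and those of 82 cytosolic ribosomal protein genes from −0.14 to 0.14 in the same libraries. Summed subunit FPKM was 14927 ± 1087 (SD, n = 2) in Pax7-465 cells, 15760 ± 1773 in Pax3 cells, 16013 ± 1.37 in Q-GL- cells, 15362 ± 410 in Q+GL+ cells and 15057 ± 846 in Q-GL+ cells. The means lie closer together than the 2 libraries of Pax3 do, or those of Pax7-465. The part of library composition in the group medians was not tested.

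**Figure D4:**
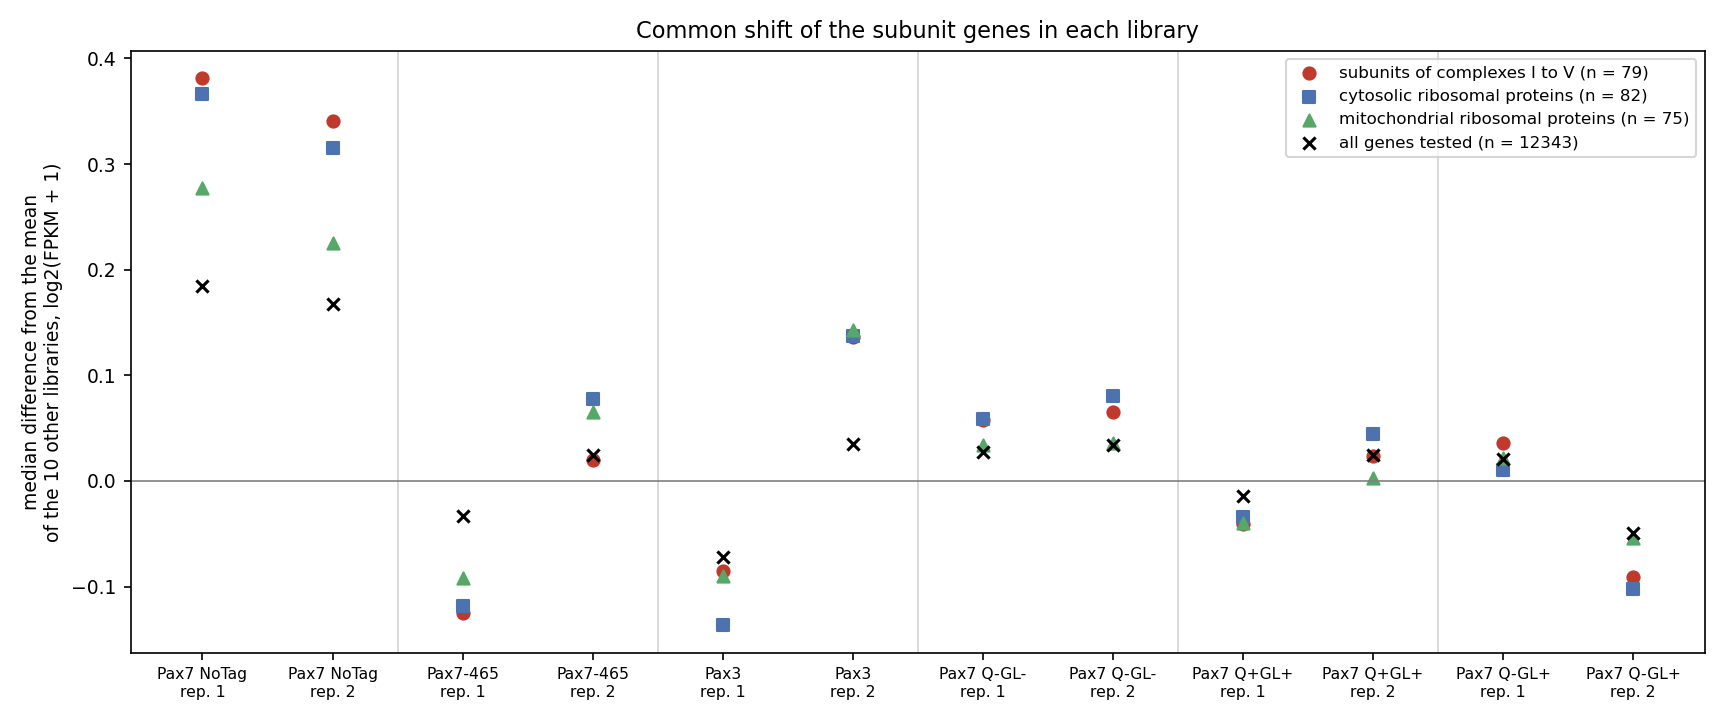
Median difference of 79 subunit genes, 82 cytosolic and 75 mitochondrial ribosomal protein genes and 12343 genes tested from their mean over the 10 libraries other than NoTag, on log2(FPKM + 1), in each of the 12 libraries. The 2 NoTag libraries are highest at 0.38 and 0.34 for the subunits, and the replicates of Pax3 and of Pax7-465 lie on both sides of 0, as do the ribosomal protein genes in the same libraries.

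NoTag cells stood above the other 5 groups in most members. Of the 85 tested, 65 were higher than the mean of the other 5 groups and 0 were lower, where of all 12578 genes tested 56.3% were called, 45.6% higher and 10.7% lower. These 12578 genes include some that entered only because the NoTag libraries were counted, since 12343 were tested in the other 10. The 85 members were tested in both fits. Before adjustment 67 members passed 0.05 upwards and 0 downwards, against 49.1% and 12.2% of all genes. Both NoTag libraries lay above all 10 others for 65 of the 85 members and below all 10 for none, where 41.3% and 9.13% of all genes did so. Of the members called, 64 were also free of overlap in this way. By complex, the members called higher were 27 of 35 in complex I, 3 of 4 in complex II, 6 of 8 in complex III, 13 of 15 in complex IV and 12 of 17 in complex V, with 3 of the 4 Sdhaf genes and Atp5sl. The median member had a log2 fold change of 0.37, but the median of all genes was itself 0.18. When each library was centred on its median, 44 members were higher and 4 lower, all 44 among the 65, and of all genes 25.8% were higher and 25.4% lower. After quantile normalization 42 were higher and 9 lower, where 24.4% and 27.7% of all genes were, and after removal of a trend with gene length 44 were higher and 6 lower, where 27.3% and 25% of all genes were. The smaller differences of NoTag therefore depend on the scale used.

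The largest differences did not. Ndufa11, a membrane-arm subunit that helps hold complex I together, was at 194 and 174 FPKM in NoTag cells and 17.6 to 21 FPKM in the other 10 libraries. NoTag was 9.33 times the mean of the rest (log2 fold change 3.16 with a standard error of 0.07, adjusted p = 3.5e-12 by limma). After median centring the log2 fold change was 2.97, and the gene ranked 27 by log2 fold change among all genes tested. The gene lies on chromosome 17, at 56717762 to 56724248 on the plus strand of GRCm38, and in the table it runs on past the end at 56722141 that GENCODE M21 gives it. Ndufs4, a subunit at the edge of the peripheral arm whose loss causes Leigh syndrome in humans, was at 239 and 231 FPKM in NoTag cells and 45.2 to 54.3 FPKM in the other 10. This was 4.67 times the mean of the rest (log2 fold change 2.20 with a standard error of 0.06, adjusted p = 2.6e-11 by limma, or 2.02 after centring), and the gene ranked 60. Ndufa11 made up 0.903% and 0.837% of summed subunit FPKM there and 0.123% to 0.137% in the other 10 libraries, and Ndufs4 1.11% in both and 0.304% to 0.347%.

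The other members of the 5 with the largest fold changes were Sdhaf2, Cox7b and Atp5md. Sdhaf2, which attaches the flavin of succinate dehydrogenase, was at 21.6 and 20.7 FPKM in NoTag cells and 6.89 to 9.13 FPKM in the rest (log2 fold change 1.23, standard error 0.08, adjusted p = 1.6e-07 by limma). Cox7b, a small subunit of complex IV, was at 320 and 313 FPKM against 135 to 158 FPKM (1.08, standard error 0.06, adjusted p = 4.7e-08). Atp5md, a small subunit of the membrane part of ATP synthase also known as DAPIT, was at 531 and 484 FPKM against 232 to 300 FPKM (1.0, standard error 0.08, adjusted p = 5.4e-07). All 3 stayed called in the 18 alternatives tried, in which the lowest log2 fold change was 0.71, that of Atp5md.

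Among the most abundant subunits of each complex, differences were smaller. Cox4i1 was at 915 and 884 FPKM in NoTag cells (0.69, adjusted p = 2.6e-05) and Uqcr11 at 696 and 662 FPKM (0.60, adjusted p = 1.5e-04), both by limma and both above the ranges given earlier. In the same comparison the log2 fold change was 0.75 for Uqcr10 and 0.46 for Sdhd, which were called under all alternatives. It was 0.86 for Ndufb8, likewise called throughout. For Cox8a (0.35), Sdhb (0.30) and Ndufa1 (0.23) the call held in 15, 14 and 13 of 18 alternatives. Atp5b, at 1705 and 1686 FPKM, had 0.21 (adjusted p = 0.041), but 0.02 after centring and −0.23 after quantile normalization. Atp5a1, at 592 and 569 FPKM, was not called (0.12, adjusted p = 0.22). Atp5e, of the central stalk, was at 512 and 482 FPKM in NoTag cells, above the 10 others, and had 0.83 (adjusted p = 4.0e-06 by limma).

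The isoform genes also differed in NoTag. Atp5g1 had a log2 fold change of 0.26 (adjusted p = 0.015), Atp5g2 of 0.10 and Atp5g3 of −0.09, the last with 277 and 263 FPKM in NoTag cells and 270 to 304 FPKM in the rest and uncalled (adjusted p = 0.24 by limma). Cox7a2 (0.79), Cox7a2l (0.59), Cox6b1 (0.59), Ndufa4 (0.60), Cox6a1 (0.34) and Cox7b2 (0.40) were called higher, whereas Cox7a1 (0.49, adjusted p = 0.20) and Ndufa4l2 (0.22, adjusted p = 0.32) were not. Ndufc2 (−0.05) and Ndufa8 (0.01) of complex I were not called either, and after median centring Ndufc2, Ndufa8, Atp5g3 and Cox5b-ps were the 4 called lower.

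Gene length was examined because most subunit genes are short. Summed over annotated exons, the subunit genes had a median length of 1578 bases, and all genes tested 4273 bases. Of the 85 members, 55 were in the shortest of 5 equal bands of all genes by length, with a median log2 fold change in NoTag of 0.41, where all genes in that band had 0.23. In the next band, 17 members had 0.32 and all genes 0.21. From the shortest to the longest band the median of all genes ran through 0.23, 0.21, 0.18, 0.17 and 0.14. In the middle band 9 members had 0.21 and all genes 0.18. The 2 longest bands held 3 members, with a median of 0.70, and 1 member, at 0.33, so the members did not fall steadily with length. With the length trend removed the median member had 0.16, where all genes had 0.00. Over the 85 members the log2 fold change had a Pearson correlation of −0.01 and a Spearman correlation of −0.12 with log2 length, and over 12550 genes of −0.11 and −0.09. These are across genes, which share the same 12 libraries. The summed exons of a gene can be longer than each of its transcripts, so the bands rank genes and not transcripts. The part of transcript length in the NoTag difference was not tested.

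**Figure D5:**
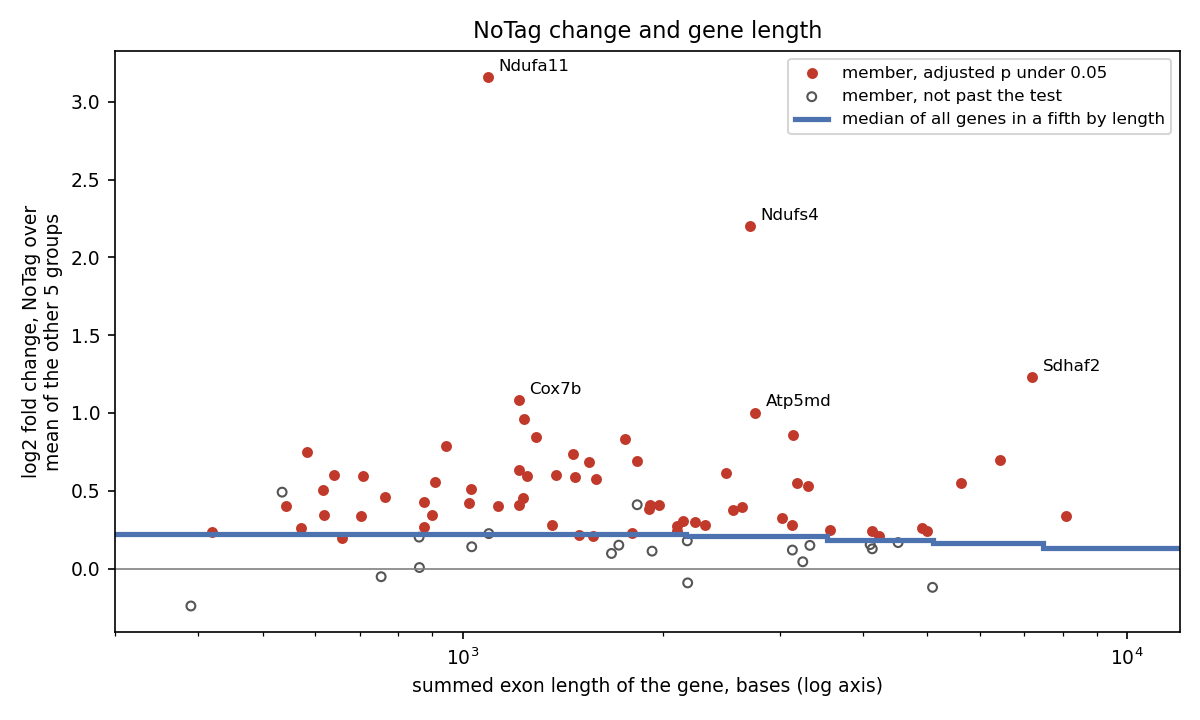
Log2 fold change of NoTag over the mean of the other 5 groups for each of 85 members against summed exon length on a log axis, filled where the adjusted p was under 0.05, with blue lines for the median of all genes in each of 5 bands by length. Ndufa11 and Ndufs4 lie far above the rest, and genes with long summed exons such as Sdhaf2 are higher as well as those with short ones.

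Lists of related genes were read in NoTag cells beside the 45.6% of all genes called higher, the 10.7% called lower and the all-gene median of 0.18. Cytosolic ribosomal protein genes, which are short and abundant too, were higher in 60 of 82 and lower in 1, with a median of 0.34, close to the 0.37 of the members. Mitochondrial ribosomal protein genes were higher in 43 and lower in 5 of 75 (median 0.25), and citric acid cycle genes higher in 11 of 16 (median 0.29). Assembly factors of the respiratory chain were higher in 20 and lower in 2 of 41 (median 0.22), a share near that of all genes. Within this list, Ndufaf7, a methyltransferase needed for complex I, had 1.37 and Cox14, needed for complex IV, −1.25. Regulators of mitochondrial biogenesis were higher in 7 and lower in 2 of 14, also near the share of all genes, with Tfam, the mitochondrial DNA packaging factor, at 0.35 and Yy1 at −0.29. Glycolysis genes, with which respiration shares the making of ATP, were higher in 4 and lower in 5 of 16 (median −0.03), with Hk2, a hexokinase, at −2.13. Of the carriers and subunits that the symbols do not match, Atpif1, the inhibitor of ATP synthase, had 0.62 and Cycs, cytochrome c, 0.27, both called, while Cyc1 and Ndufab1 were not. Histone transcripts and small RNAs were read as well. Of 8 histone genes tested, 0 were higher and 5 lower, a larger share lower than among all genes. Among them Hist1h4d was at −2.06 and Hist1h2bh was listed at 0 in both NoTag libraries. Of 39 small nuclear, nucleolar and Y RNAs, 16 were higher and 1 lower, shares no larger than those of all genes. Only 36 of them were tested in the fit of 10 libraries, so the 39 include some that entered through their NoTag values. Single ones differed strongly, with the Y RNA Rny3 at 1.37. Snord35a was listed at 0 in the other 10 libraries, so that it entered the test through NoTag alone and could only be higher there. Their part in the difference of the members was not tested.

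These lists gave few calls among the other 5 groups. Pfkm, a phosphofructokinase, was the 1 glycolysis gene of 16 called in Q-GL- over Q-GL+ cells (0.45, adjusted p = 0.021), and Mrpl23 the 1 mitochondrial ribosomal protein gene of 75 (0.44, adjusted p = 0.044). In Pax3 over Q-GL- cells, Pkm, pyruvate kinase, was lower (−0.53, adjusted p = 0.041) and Ppargc1a, a coactivator of mitochondrial biogenesis, higher (0.79, adjusted p = 0.047). Pet100, an assembly factor of complex IV, was higher in Q-GL- over Q+GL+ cells (0.40, adjusted p = 0.049). All are limma values with 2 libraries per group, and no citric acid cycle or cytosolic ribosomal protein gene was called in any of the 7 comparisons.

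Some values could carry reads of neighbours. On GRCm38, 3 subunit genes overlap another gene on the same strand, and the table gives Atp5o the span 91684398 to 91931687 of chromosome 16, across Donson and Cryzl1 on its own strand and Itsn1 on the other. In all, 21 overlap a gene on the opposite strand. The reads were strand-specific, but whether the counting used strand is not stated, so these values may include the other gene.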

How the data were processed

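Libraries of ribosome-depleted RNA from 12 AtT-20 cultures were analysed, 2 per group. The deposited table holds 1 value per gene and library, which the authors made by trimming strand-specific paired reads with Trimmomatic, mapping them with TopHat2 to Ensembl GRCm38 (mm10) and quantifying genes with HOMER. The table does not name its unit. The deposited values were read as FPKM, because they are not whole, do not sum to a common total and do not rise with gene length, and no read counts or depths were at hand. The table's other 4 columns of per-sample values match no labelled sample and were not used.

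Genes that reached 1 FPKM in 2 or more libraries were tested on log2(FPKM + 1) with limma 3.58.1 (trend and robust variance, statmod 1.5.0) in R 4.3.3, with Benjamini-Hochberg adjustment over all genes tested. Fold changes on this scale understate those of low genes. Comparisons among 5 groups used 1 fit of 10 libraries, and NoTag was set against the mean of the other 5 groups in a fit of 12. The procedure was tested on simulated data. Exon lengths came from GENCODE M21 and promoters from RefSeq (GRCm38.p6). All 88 members matched an entry there. Starts in the table are 1 base below GENCODE for 96.9% of genes and were raised by 1. Python 3.11.15 and matplotlib 3.10.9 were used for tables and plots.

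Every member may be named with its level. Statistics are given for the 5 members with the largest called change per comparison and direction, the 2 most abundant of each complex, paired isoforms, and up to 4 genes of other lists by adjusted p, with exceptions stated in the text. The members and lists were chosen with earlier results of these data known. Alternatives were other scalings, filters, pseudocounts and sets of libraries, and each library left out. Removal of a length trend was added after the data were seen.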

Additional observations from a re-analysis of the deposited data

How the results depend on the processing

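The counts of 0 members called among the 5 groups changed under some of the alternatives. Q-GL- over Q-GL+ gave 6 members (7.06%) with quantile normalization, 2 (2.35%) with median centring, 5 (5.88%) with only the groups compared, 1 (1.18%) with all 12 libraries and 4 (4.71%) without a length trend, where 5.91%, 4.44%, 7.57%, 4.17% and 5.73% of all genes were called, and 0 to 1 without single libraries. Q+GL+ over Q-GL+ gave 4, 1, 2, 1 and 1 in the same order, where 2.51%, 1.13%, 1.96%, 0.962% and 1.88% of all genes were called, and 0 to 1 without single libraries. Pax3 over Q-GL- gave 6 after quantile normalization and 3 without a length trend (5.64% and 5.41% of all genes), and 0 to 1 without single libraries. Pax3 over Q+GL+ and Pax7-465 over Q+GL+ gave 1 each after quantile normalization (0.705% and 2.14% of all genes). The test across the 5 groups gave 8 after quantile normalization, 1 after median centring and 3 without a length trend (6.67%, 4.85% and 6.22% of all genes), and 0 to 1 without single libraries. Q-GL- over Q+GL+ and Pax7-465 over Q-GL- stayed at 0 under all alternatives run. The cause was not tested.

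The correlations between groups of replicate 1 minus 2, over genes tested, ran from −0.16 to 0.17, the highest between Pax3 and Pax7-465. They cannot show whether some groups were paired or shared a batch, and the main fit used no pairing. With a replicate block, Q+GL+ over Q-GL+ had 1 member called (Atp5e, adjusted p = 0.048), and the block changed no other count of members called.

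The NoTag count of 65 members was 47 to 71 without single libraries. It was 47 without NoTag replicate 1, 54 without NoTag replicate 2 and 71 without Pax3 replicate 2, where 31.5%, 33.7% and 48.1% of all genes were higher, and a lone NoTag library is assumed to vary like the other groups. Of the members above 0 in NoTag, 25 turned below 0 after quantile normalization (12 of them called before), 12 after median centring (0 called before) and 16 without a length trend (3 called before). Among those given with statistics, this held after quantile normalization for Atp5g1 (−0.028), Atp5g2 (−0.15), Atp5b (−0.23), Atp5a1 (−0.20) and Ndufa1 (−0.062), after median centring for Atp5g2 (−0.090) and Atp5a1 (−0.068), and without a length trend for Atp5g2 (−0.12) and Atp5a1 (−0.082). Ndufa8 turned below 0 under all 3 and was then called lower. Read depth is unknown, so its limit on low members such as Ndufa4l2 could not be stated.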
